A study of Homo sapiens with 8 samples.

Results

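Messenger RNA levels of 9 genes that respond to the transcription factor NRF2 or serve glutathione metabolism were examined across sorted populations of 4 human tumour cell lines. The genes were GCLC, GCLM, NQO1, SLC7A11, TXNRD1, HMOX1, SRXN1, FTL and ME1. Each was read from a probe set whose platform annotation names that gene alone, and each had 1 such probe set, so that 9 of the 18417 genes covered by the array were taken. Sorted cells labelled ABCB5-positive and ABCB5-negative, with or without an antibody signal for the ATP-binding cassette transporter ABCB5, came from the lines COLO741, SW620, HT29 and HCT116, with 1 array per population and line and hence 4 arrays per population. All 4 lines are labelled as colon cancer lines, SW620 from a lymph node metastasis, and the design text of the series lists SW480 in place of SW620. Culture was in serum-supplemented RPMI medium, and the labels record no drug or other treatment. Nothing in the labels says that both populations of a line came from separate cultures, so that p-values measure the spread between these arrays, which may be technical.

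The ABCB5 transcript did not follow the sort labels. In COLO741 its log2 level was 8.14 on the array labelled ABCB5-positive and 9.42 on the array labelled ABCB5-negative, opposite to the labels, and in the other 3 lines it lay at or below 5.69, below the median of 360 olfactory receptor probe sets (5.73), which gauge the background, and whose 95th percentile (7.50) serves below as the background mark. Directions drawn from COLO741 therefore rest on labels that its ABCB5 transcript opposes. COLO741 also went against its labelled tissue. Its 6 measured melanocyte markers summed to a linear level of 57950 on the positive and 68740 on the negative array, against 803 to 939 on the arrays of the other lines. The 11 measured markers of intestinal epithelium summed to 6042 on the positive and 5566 on the negative COLO741 array, against 63910 to 118793 in the other lines. Among them EPCAM, an adhesion protein of epithelia, stood at 5.36 and 6.43 in COLO741 against 13.32 to 13.77 in SW620, HT29 and HCT116. Not all were dim in COLO741, where KRT18 had a mean of 11.82, and CDX1 was alike in all lines (means 8.62 to 8.80). On the SW620 array labelled positive, 12 of 15 phagocyte markers were higher than on its partner, 6 of them by more than 1 log2 unit.

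NRF2, encoded by NFE2L2, is held at a low level by the adaptor KEAP1 and the ubiquitin ligase that KEAP1 serves. When electrophiles or oxidants modify KEAP1, NRF2 accumulates, pairs with small MAF proteins and binds antioxidant response elements near its target genes. These targets supply cysteine and glutathione, reduce thioredoxin and quinones, make NADPH and handle haem and iron, and their level is followed in tumours because they also help cells withstand drugs and radiation.

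Promoter windows from RefSeq (GRCh38.p14, 250 bases before to 50 after an annotated start) were found for 7 of the 9 genes, with a pair of starts for TXNRD1. The core of the antioxidant response element, TGACNNNGC, was searched on both strands, and it can overlap the element bound by AP-1 factors. It occurred in 4 of the 8 windows, those of GCLM and ME1 and both of TXNRD1, and in 13.3% of all 35116 promoter windows. Windows of GCLC, NQO1, SRXN1 and FTL held no such letters, and sequence outside the windows was not searched. The 250 bases before 3 of these starts are shown because GCLM and TXNRD1 were among the genes lowest in SW620 and ME1 was the gene at background in COLO741. Capitals mark the matched letters, which lie on the opposite strand in GCLM and TXNRD1 and on the gene's own strand in ME1.
GCLM, chr1:93909431-93909680, minus strand: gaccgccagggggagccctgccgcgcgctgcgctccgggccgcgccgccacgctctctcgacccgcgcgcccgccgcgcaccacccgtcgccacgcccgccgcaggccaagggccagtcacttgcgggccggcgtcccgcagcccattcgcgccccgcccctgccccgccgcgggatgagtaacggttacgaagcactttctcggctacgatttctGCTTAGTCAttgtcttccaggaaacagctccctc
TXNRD1, chr12:104286782-104287031, plus strand: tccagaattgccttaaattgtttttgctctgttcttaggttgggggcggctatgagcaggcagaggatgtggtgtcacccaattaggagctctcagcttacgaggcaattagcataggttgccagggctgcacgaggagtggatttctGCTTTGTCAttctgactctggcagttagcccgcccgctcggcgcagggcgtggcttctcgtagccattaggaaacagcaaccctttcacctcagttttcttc
ME1, chr6:83431052-83431301, minus strand: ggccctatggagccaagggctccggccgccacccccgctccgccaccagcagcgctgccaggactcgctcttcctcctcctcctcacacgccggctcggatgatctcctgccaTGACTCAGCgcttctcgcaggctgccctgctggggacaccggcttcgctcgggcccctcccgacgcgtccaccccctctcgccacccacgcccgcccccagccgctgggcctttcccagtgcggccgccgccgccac
The GCLM match read TGACTAAGC and lay at positions -34 to -26 from the start. In TXNRD1 the match at the start shown read TGACAAAGC and lay at -102 to -94. The ME1 match upstream read TGACTCAGC, at -137 to -129, and a further ME1 match lay after the start, at 12 to 20. These matches are descriptions of letters and not evidence of binding.

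The first question was whether these genes differ between the lines. All 9 differed by limma's F test over the 4 lines at an adjusted p under 0.05, where 67.2% of the 16910 genes tested did so. The range of the line means reached 1 log2 unit or more, a 2-fold difference, in 6 of the 9 genes, against 31.3% of all genes tested. The median range of the 9 genes was 1.14 log2 units, against 0.64 over all genes tested. The populations of a line lay close together by comparison, and in the 8 genes other than ME1, which was at background in COLO741, the range between lines was 1.87 to 5.74 times the largest gap between the 2 arrays of a line. The 9 genes did not share an order of lines: SW620 was the lowest line for 5 genes (all genes, 30.5%), COLO741 for 3 (30.3%) and HCT116 for 1 (17.4%), while COLO741 was the highest line for 5 genes (25.0%) and HT29 for 4 (25.1%).

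**Figure D1:**
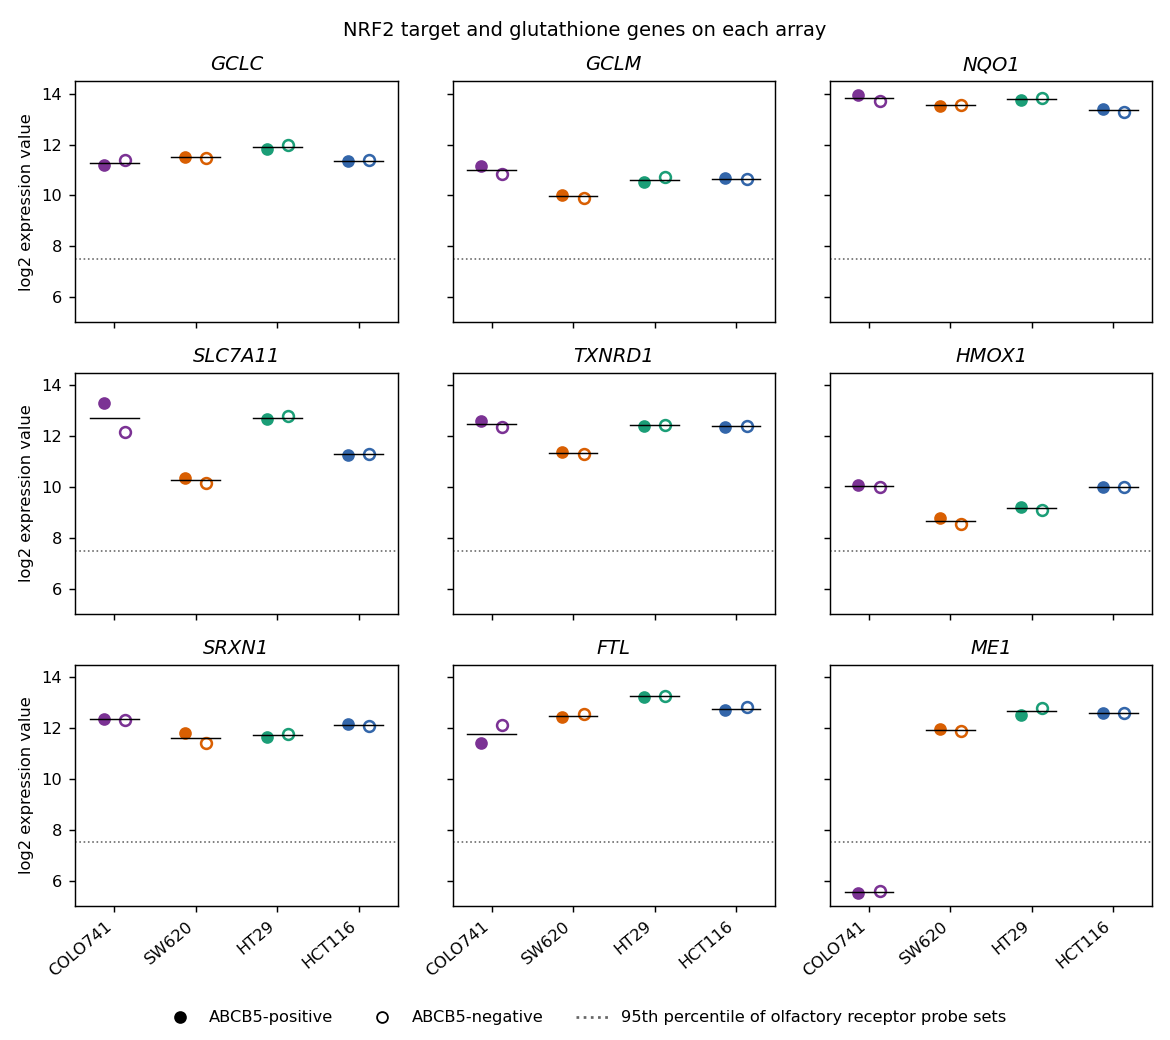
Log2 expression value (vertical axis) of each of the 9 genes on each of the 8 arrays, by cell line (horizontal axis), with filled points for ABCB5-positive, open points for ABCB5-negative, a bar for the line mean and a dotted line at the background mark. ME1 lies below that line in COLO741 only, and SLC7A11, TXNRD1, GCLM and HMOX1 are lowest in SW620.

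Among the genes of glutathione synthesis, SLC7A11 varied most. It encodes the light chain of the cystine-glutamate exchanger, which brings in the cystine from which glutathione is made, and it answers to ATF4 as well as to NRF2. Its log2 level was 13.30 on the positive and 12.16 on the negative array of COLO741, 10.37 and 10.18 in SW620, 12.66 and 12.81 in HT29, and 11.28 and 11.31 in HCT116. COLO741 and HT29 were high and overlapped, HCT116 lay between, and both SW620 arrays were the lowest of all, with a 5.51-fold range of line means. By limma, SLC7A11 was higher in COLO741 than in SW620 by 2.46 ± 0.29 (log2, SE, adjusted p = 0.000696) and lower in SW620 than in HT29 by the same amount (-2.46 ± 0.29, adjusted p = 0.000877). COLO741 and HT29 did not pass (-0.00 ± 0.29, adjusted p = 0.997). That pair turned on the COLO741 arrays, since the difference was -0.57 without the positive array (adjusted p = 0.0199) and 0.57 without the negative array (adjusted p = 0.0209). SLC7A11 was also higher in COLO741 than in HCT116 (1.44 ± 0.29, adjusted p = 0.00735), lower in SW620 than in HCT116 (-1.02 ± 0.29, adjusted p = 0.0334) and higher in HT29 than in HCT116 (1.44 ± 0.29, adjusted p = 0.00872). These calls with HCT116 were lost without the positive HCT116 array (adjusted p = 0.0672, 0.0816 and 0.0791 in the same order), the SW620 one also without either SW620 array or the negative HCT116 array (adjusted p = 0.111 to 0.195), and the HT29 one without the negative HT29 array (adjusted p = 0.0683).

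GCLC and GCLM encode the catalytic and the modifier subunit of glutamate-cysteine ligase, the rate-limiting enzyme of glutathione synthesis, and their orders of lines differed. GCLC stood at 11.20 on the positive and 11.39 on the negative array of COLO741, 11.52 and 11.46 in SW620, 11.82 and 12.00 in HT29, and 11.34 and 11.40 in HCT116. Only the HT29 arrays stood apart, above all others, and the other lines overlapped or nearly met. GCLC was lower in COLO741 than in HT29 by limma (-0.61 ± 0.10, log2, SE, adjusted p = 0.00240), and the lower level of SW620 than HT29 (-0.41 ± 0.10, adjusted p = 0.0154) was lost without either HT29 array or the negative SW620 array (adjusted p = 0.0605 to 0.125). The higher level of HT29 than HCT116 (0.54 ± 0.10, adjusted p = 0.00540) was lost without the negative array of either line (adjusted p = 0.0573 and 0.0535), and the F test of GCLC without the negative HT29 array (adjusted p = 0.0613).

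GCLM stood at 11.17 on the positive and 10.86 on the negative array of COLO741, 10.04 and 9.90 in SW620, 10.54 and 10.71 in HT29, and 10.67 and 10.64 in HCT116. The SW620 arrays were the lowest, the COLO741 arrays the highest, and HT29 and HCT116 overlapped. GCLM was higher in COLO741 than in SW620 by 1.05 ± 0.13 (log2, SE, limma adjusted p = 0.000733). It was lower in SW620 than in HT29 at a difference of -0.65 ± 0.13 (adjusted p = 0.00689, and 0.0599 without the negative HT29 array) and than in HCT116 at a difference of -0.69 ± 0.13 (adjusted p = 0.00598, and 0.0549 without the negative HCT116 array). HT29 and HCT116 did not pass for GCLM (-0.03 ± 0.13, adjusted p = 0.883). The higher level of COLO741 than HT29 (0.39 ± 0.13, adjusted p = 0.0433) was lost after median centring (adjusted p = 0.0530) and without any single array other than the negative COLO741 and HT29 ones (adjusted p = 0.0668 to 0.308). COLO741 over HCT116 (0.36 ± 0.13, adjusted p = 0.0564) passed only without an HT29 array or without the negative COLO741 array (adjusted p = 0.0483 and 0.0261) among the array omissions.

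In the thioredoxin branch, TXNRD1, the selenoenzyme that reduces cytosolic thioredoxin with NADPH, was low in SW620 and level elsewhere. It stood at 12.60 on the positive and 12.39 on the negative array of COLO741, 11.40 and 11.32 in SW620, 12.41 and 12.44 in HT29, and 12.38 and 12.42 in HCT116. The arrays of the other 3 lines overlapped, and both SW620 arrays lay about 1 log2 unit below them. TXNRD1 was higher in COLO741 than in SW620 by 1.14 ± 0.10 (log2, SE, limma adjusted p = 0.000168), and lower in SW620 than in HT29 at a difference of -1.07 ± 0.10 (adjusted p = 0.000284) and than in HCT116 at a difference of -1.04 ± 0.10 (adjusted p = 0.000380). None of the 3 pairs without SW620 passed for TXNRD1 (adjusted p = 0.460 to 0.849). Its 3 calls held under each of the 15 other settings tried.

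SRXN1, sulfiredoxin, which restores overoxidised peroxiredoxins, had a smaller range of 0.73. Its level was 12.38 on the positive and 12.31 on the negative array of COLO741, 11.81 and 11.42 in SW620, 11.67 and 11.78 in HT29, and 12.14 and 12.10 in HCT116. SW620 and HT29 overlapped, and HCT116 and COLO741 lay above both. SRXN1 was higher in COLO741 than in SW620 (0.73 ± 0.13, log2, SE, limma adjusted p = 0.00401) and than in HT29 (0.62 ± 0.13, adjusted p = 0.00781, and 0.0716 without the positive HT29 array). It was lower in SW620 than in HCT116 (-0.50 ± 0.13, adjusted p = 0.0223), a call lost without the negative SW620 array or either HCT116 array (adjusted p = 0.0998 to 0.132). HT29 minus HCT116 was -0.40 ± 0.13 for SRXN1 (adjusted p = 0.0501) and passed without either SW620 array (adjusted p = 0.0217).

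NQO1, the quinone reductase that uses NADPH or NADH, was the brightest of the 9 on average, with a mean above that of 99.0% of genes, and had the smallest range, 0.49. It stood at 13.95 on the positive and 13.70 on the negative array of COLO741, 13.53 and 13.57 in SW620, 13.75 and 13.85 in HT29, and 13.39 and 13.29 in HCT116. Only HCT116 stood apart from COLO741 and HT29, by 0.49 ± 0.11 for COLO741 minus HCT116 (log2, SE, limma adjusted p = 0.0112) and 0.46 ± 0.11 for HT29 minus HCT116 (adjusted p = 0.0170). Both calls, and the F test of NQO1, were lost without either HCT116 array (adjusted p = 0.0613 to 0.117), the first also without the positive COLO741 array (adjusted p = 0.0515) and the second without the negative HT29 array (adjusted p = 0.146). Without the negative COLO741 array, NQO1 was higher in COLO741 than in SW620 (adjusted p = 0.0329, against 0.0821 with all arrays).

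ME1, the cytosolic malic enzyme that makes NADPH from malate, gave the widest difference. Its level in COLO741 was 5.50 on the positive and 5.57 on the negative array, against 11.97 and 11.88 in SW620, 12.53 and 12.78 in HT29, and 12.60 and 12.60 in HCT116. Both COLO741 arrays lay below the median of the olfactory receptor probe sets, and the groups were separated by more than 6 log2 units. The fitted difference of COLO741 from SW620 was -6.39 ± 0.11 (log2, SE, limma adjusted p = 5.62e-07), from HT29 -7.12 ± 0.11 (adjusted p = 2.42e-07) and from HCT116 -7.07 ± 0.11 (adjusted p = 3.50e-07). Since the COLO741 level is at background, only a bound follows, and against the background mark ME1 was at least 21.5-fold lower in COLO741 than in SW620, 35.7-fold lower than in HT29 and 34.3-fold lower than in HCT116. Between lines that express it, ME1 was lower in SW620 than in HT29 (-0.73 ± 0.11, adjusted p = 0.00212) and than in HCT116 (-0.68 ± 0.11, adjusted p = 0.00322), and HT29 and HCT116 did not pass (0.06 ± 0.11, adjusted p = 0.742). These 5 calls held under each of the 15 other settings.

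HMOX1 and FTL act on haem and iron, and their orders of lines were unlike. HMOX1, haem oxygenase 1, which breaks down haem and is also repressed by BACH1, stood at 10.09 on the positive and 10.00 on the negative array of COLO741, 8.78 and 8.54 in SW620, 9.21 and 9.11 in HT29, and 10.00 and 10.00 in HCT116. COLO741 and HCT116 met, HT29 lay below them, and SW620 was lowest. HMOX1 was higher in COLO741 than in SW620 by 1.38 ± 0.09 (log2, SE, limma adjusted p = 5.65e-05) and than in HT29 by 0.88 ± 0.09 (adjusted p = 0.000377), and COLO741 and HCT116 did not pass (0.04 ± 0.09, adjusted p = 0.738). It was lower in SW620 than in HCT116 at a difference of -1.34 ± 0.09 (adjusted p = 0.000104) and than in HT29 at a difference of -0.50 ± 0.09 (adjusted p = 0.00615, and 0.0516 without the negative HT29 array), and lower in HT29 than in HCT116 at a difference of -0.84 ± 0.09 (adjusted p = 0.000687).

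FTL encodes the light chain of ferritin, the iron store. Near-identical processed copies of the gene exist, so the probe set may also read those. FTL stood at 11.40 on the positive and 12.10 on the negative array of COLO741, 12.43 and 12.54 in SW620, 13.24 and 13.27 in HT29, and 12.69 and 12.82 in HCT116. The lines did not overlap, with COLO741 lowest and HT29 highest, and its widest gap within a line was that of COLO741. FTL was lower in COLO741 than in HT29 (-1.50 ± 0.17, log2, SE, limma adjusted p = 0.000502) and than in HCT116 (-1.01 ± 0.17, adjusted p = 0.00329). It was lower in COLO741 than in SW620 (-0.73 ± 0.17, adjusted p = 0.0122, and 0.0889 without the positive SW620 array) and lower in SW620 than in HT29 (-0.77 ± 0.17, adjusted p = 0.0118), the last lost without the positive HT29 array (adjusted p = 0.0939) or the negative SW620 array (adjusted p = 0.0795). HT29 minus HCT116 (0.50 ± 0.17, adjusted p = 0.0598) and SW620 minus HCT116 (-0.27 ± 0.17, adjusted p = 0.244) passed without either COLO741 array (adjusted p = 0.00474 and 0.0370).

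Set side by side, SW620 was lower than each of the other 3 lines in GCLM, SLC7A11, TXNRD1 and HMOX1, with an adjusted p under 0.05 in all 3 pairs. That is 4 of the 9 genes, against 4.87% of all genes tested. The count was 2 without the negative HT29 array (SLC7A11 and TXNRD1) and 2 without the negative HCT116 array (TXNRD1 and HMOX1), and 3 without either SW620 array or the positive HCT116 array. COLO741 was lower than each other line in FTL and ME1, 2 of 9 against 9.31%, and HT29 was higher than each other line in GCLC, 1 of 9 against 6.98%. The COLO741 count was 1 (ME1) without the positive SW620 array. The HT29 count was 0 without either HT29 array, the negative SW620 array or the negative HCT116 array, 2 without the negative COLO741 array and 3 without the positive COLO741 array. With all arrays, 0 of the 9 were higher in COLO741 than in each other line (all genes, 11.3%), 0 higher in SW620 (7.34%), 0 lower in HT29 (6.62%), and 0 higher (6.25%) or lower (4.87%) in HCT116. COLO741 was the highest line by this count in 2 genes (GCLM and SLC7A11) without its negative array and in 1 (GCLM) without the negative HT29 array. Pair by pair, SW620 was lower than HT29 in 7 of the 9 genes (all genes, 18.9%) and higher in 0 (all genes, 21.2%), and lower than HCT116 in 6 (all genes, 19.8%) and higher in 0 (all genes, 19.1%). COLO741 was higher than SW620 in 5 (all genes, 23%) and lower in 2 (all genes, 24%). COLO741 was higher than HT29 in 3 (all genes, 23.1%) and lower in 3 (all genes, 22.2%), and higher than HCT116 in 2 (all genes, 22%) and lower in 2 (all genes, 23.9%). HT29 was higher than HCT116 in 3 (all genes, 18.4%) and lower in 1 (all genes, 20.6%). These 9 genes were chosen with earlier results of the same arrays known, and pairs that share a line are not independent.

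The second question was whether the 9 genes go with the ABCB5 label within lines. In limma with the cell line as a block, 0 of the 9 passed, as did 0% of the 16910 genes, and 0 of the 9 had an unadjusted p under 0.05, against 4.4% of all genes. Adjusted p-values of the 9 ran from 0.898 to 0.935. In the mean over the lines 6 were higher and 3 lower in positive cells, where 48% of all genes were higher, with a median of 0.06 log2 units against -0.00 over all genes. That tally rests on the COLO741 labels, which its ABCB5 transcript opposes, and without COLO741 4 were higher and 5 lower, where 50.8% of all genes were higher, with a median of -0.0027 against 0.0018 over all genes. The widest 95% interval, that of SLC7A11, ran from -0.21 to 0.79, and that of FTL from -0.53 to 0.05, while the intervals of the other 7 genes stayed within -0.26 and 0.32. Differences inside these intervals are not excluded by the 4 pairs of arrays. The intervals are not adjusted for the 16910 genes tested, so they are no limits of detection, and differences outside them could also go uncalled.

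**Figure D2:**
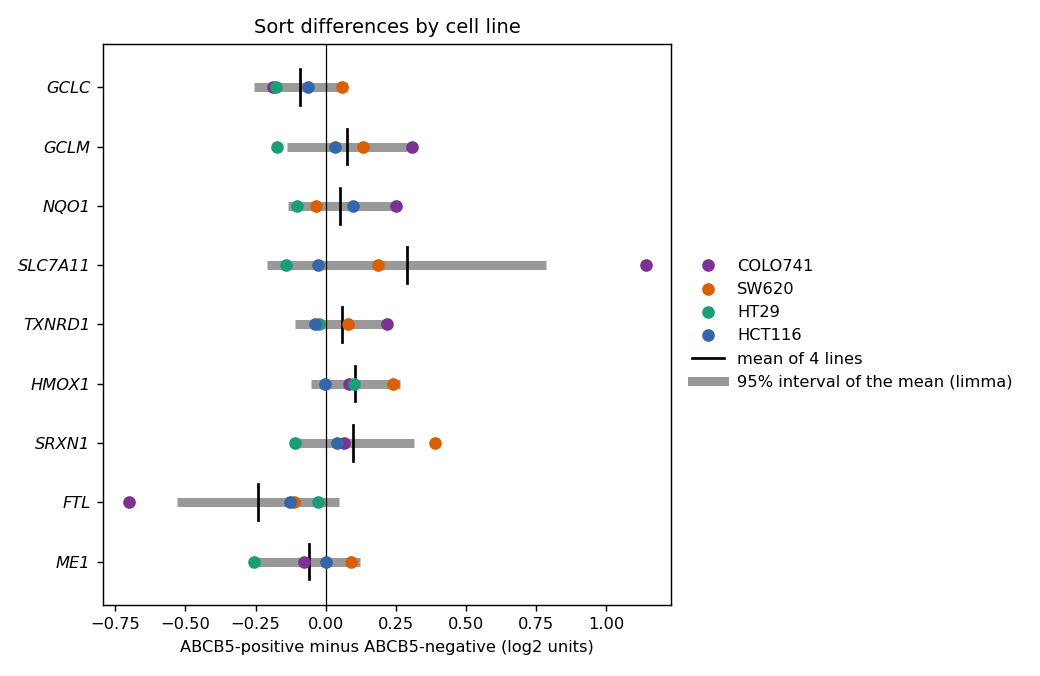
Difference of ABCB5-positive minus ABCB5-negative (horizontal axis, log2 units) for each of the 9 genes (rows), with a point for each cell line, a black bar for the mean of the 4 lines and a grey band for its 95% interval from limma. All bands include 0, and the points farthest from 0 are those of COLO741 in SLC7A11 (1.14) and FTL (-0.70).

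The single lines gave different pictures. In COLO741, SLC7A11 was 13.30 on the positive and 12.16 on the negative array, a difference of 1.14, while in SW620, HT29 and HCT116 its differences were 0.19, -0.14 and -0.03, so that its mean of 0.29 ± 0.58 (SD, n = 4) became 0.01 without COLO741. FTL was the only 1 of the 9 genes with a single sign in all lines, at -0.70 for COLO741, -0.11 for SW620, -0.03 for HT29 and -0.13 for HCT116, and 6.98% of all genes were below 0 in all lines. The sign and size in COLO741 again rest on its labels, and 12.4% of all genes were, like FTL, below 0 in each of the other 3 lines. None of the 9 was above 0 in all lines (all genes, 6.39%). The FTL mean of -0.24 ± 0.31 (SD, n = 4) became -0.09 without COLO741. The differences of GCLM, NQO1 and TXNRD1 were also largest in COLO741, at 0.31, 0.25 and 0.22, and their means were -0.00, -0.01 and 0.01 without that line. That of GCLC was farthest from 0 there too, at -0.19 against -0.18 in HT29, and its mean was -0.06 without COLO741. A limma test of the COLO741 difference against that of the other lines called 0 of the 9 genes, against 0.337% of all genes, with an adjusted p of 0.0909 for SLC7A11 and 0.151 for FTL. The same test called 0 of the 9 for SW620 (all genes, 0.00591%), HT29 (all genes, 0%) and HCT116 (all genes, 0%).

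In SW620, the differences farthest from 0 were those of SRXN1 at 0.39 and HMOX1 at 0.24, both higher on the positive array. Phagocyte markers moved on the same array, by a median of 0.58 over the 15 measured. Of these, 6 were higher by more than 1 log2 unit, against 0 in each other line. Their summed linear level was 7242 on the positive and 3630 on the negative SW620 array. Sums on the arrays of the other lines ran from 3896 to 25947 and included bright single genes. LYZ stood at 14.27 on the positive and 14.42 on the negative array of HT29, and CD68 at 12.17 and 13.03 in COLO741. CYBB, an oxidase subunit of phagocytes, stood at 9.28 on the positive and 6.06 on the negative SW620 array. It lay under the background mark on all arrays but that positive one. PTPRC, the common leukocyte antigen, lay under the mark on all 8 arrays, at 6.96 on the positive and 4.87 on the negative SW620 array. On that positive array FCER1G, LYZ, CD14 and LAPTM5 were higher by 2.45, 1.67, 1.37 and 1.06, and 12 of the 15 markers were higher in all. C1QA and C1QB, complement genes of macrophages, lay under that mark on all 8 arrays as well and C1QC on 6 of 8. The FTL difference in SW620 was -0.11. The part of phagocytes in these differences was not tested. Without SW620 the mean of SRXN1 was -0.00, against 0.10 with it, and that of HMOX1 0.06, against 0.11. In HT29, the difference farthest from 0 was that of ME1 at -0.26. In HCT116 it was that of FTL at -0.13. The median absolute difference of the 9 genes was 0.22 for COLO741, 0.11 for SW620, 0.11 for HT29 and 0.04 for HCT116, against 0.15, 0.12, 0.10 and 0.07 over all genes tested.

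Other genes of the pathway were read from lists chosen for function. The counts below stand against 67.2% of all genes tested that passed the F test over the lines, and 31.3% that passed with a range of at least 1 log2 unit. Of 9 measured regulators of NRF2, 8 passed, 4 of them with that range. NFE2L2 itself, named beside those the rule picked, had line means of 12.60 for COLO741, 11.59 for SW620, 12.34 for HT29 and 12.46 for HCT116. It was higher in COLO741 than in SW620 (limma adjusted p = 0.000118), and SW620 differed by -0.75 from HT29 (adjusted p = 0.000566) and by -0.87 from HCT116 (adjusted p = 0.000356), and its sort difference was -0.05 ± 0.03 (SD, n = 4). KEAP1, also named in addition, ran from 10.79 in COLO741 to 11.40 in HCT116. SQSTM1, the autophagy receptor that can draw KEAP1 away from NRF2, had means of 13.83 for COLO741, 12.14 for SW620, 12.91 for HT29 and 12.95 for HCT116, and MAFF, a small MAF protein, 10.05, 8.36, 8.78 and 8.86 in the same lines. SW620 was the lowest line for 5 of the 9 regulators, COLO741 for 2, and HT29 and HCT116 for 1 each, where SW620 was lowest for 30.5% of all genes tested.

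Of 23 other glutathione genes 20 passed the F test (all genes, 67.2%), 14 with a range of at least 1 (all genes, 31.3%). GPX2, the glutathione peroxidase of intestinal epithelium, lay under the background mark in COLO741 (6.75 on the positive and 6.34 on the negative array) and HCT116 (6.57 and 6.95), against 13.71 and 13.63 in SW620 and 14.16 and 14.24 in HT29. GPX2 was at least 72.0-fold lower in both dim lines than in SW620 and at least 104-fold lower than in HT29. GSTM4, a glutathione transferase of a family of near-identical copies, had means of 12.57 for COLO741, 10.83 for SW620, 7.42 for HT29 and 10.37 for HCT116. The HT29 mean lay just under the background mark. Of 9 thioredoxin and peroxiredoxin genes 8 passed, 4 with a range of at least 1. PRDX1, an abundant peroxiredoxin and NRF2 target, stood at 8.93 on the positive and 8.81 on the negative array of COLO741, against 13.93 to 14.11 on the 6 arrays of the other lines (COLO741 minus SW620, -5.10, limma adjusted p = 6.15e-07). TXNIP, which binds and restrains thioredoxin, had means of 12.38 to 13.44 in COLO741, SW620 and HT29. Its HCT116 mean of 7.17 lay under the background mark.

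All 6 measured NADPH genes passed the F test (all genes, 67.2%), 2 with a range of at least 1 (all genes, 31.3%). NNT, the transhydrogenase of mitochondria, was under the background mark in HCT116 (6.40 on the positive and 6.08 on the negative array), at least 36.8-fold lower than in COLO741, and MTHFD1, an enzyme of folate metabolism, was lowest in COLO741 at 11.70 and highest in SW620 at 12.85. Of 12 detoxification genes 11 passed, 9 with a range of at least 1, and the median range was 2.10 against 0.64 over all genes. AKR1B10, an aldo-keto reductase known as an NRF2 target, stood at 12.27 on the positive and 13.01 on the negative array of HT29. Its means of 7.23 in COLO741, 5.56 in SW620 and 6.26 in HCT116 each lay under the background mark. AKR1C3, of the same superfamily with near-identical relatives, had means of 11.34 in HT29 and 10.03 in SW620. Its means of 5.71 in COLO741 and 5.90 in HCT116 lay under the mark. Pair by pair, COLO741 was higher than SW620 in 7 of these 12 genes and lower in 4 (all genes, 23% and 24%), higher than HT29 in 4 and lower in 6 (23.1% and 22.2%), and higher than HCT116 in 5 and lower in 0 (22% and 23.9%). The 7 over SW620 and the 5 over HCT116 include AKR1B10, whose means in these lines lie under the mark. SW620 was higher than HT29 in 0 and lower in 8 (21.2% and 18.9%), and higher than HCT116 in 5 and lower in 5 (19.1% and 19.8%). HT29 was higher than HCT116 in 8 and lower in 1 (18.4% and 20.6%).

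All 8 measured iron and haem genes passed the F test (all genes, 67.2%), 5 with a range of at least 1 (all genes, 31.3%). The iron exporter gene SLC40A1 had means of 11.47 in HT29 and 8.45 in SW620. Its means of 7.07 in HCT116 and 6.16 in COLO741 lay under the background mark, so that their order is not resolved. Against that mark SLC40A1 was at least 1.94-fold lower in both dim lines than in SW620 and at least 15.7-fold lower than in HT29. BLVRA, a biliverdin reductase that acts after haem oxygenase, had means of 10.30 for COLO741, 9.62 for SW620, 7.52 for HT29 and 9.25 for HCT116. Of 10 ATF4 target genes 7 passed, near the share of all genes, 5 with a range of at least 1 (all genes, 31.3%). PHGDH, the first enzyme of serine synthesis, was lowest in SW620, at a mean of 10.42 against 12.84 in COLO741. PSAT1, the next enzyme of that route, did not pass the F test (limma adjusted p = 0.0561). Its COLO741 arrays were far apart, at 11.47 on the positive and 8.59 on the negative one. In that line the sort differences of the other genes of this list ran from -0.57 (DDIT3) to 0.36 (SLC7A5). In the sort comparison 0 genes of any of these lists passed with limma (all genes, 0%). An unadjusted limma p under 0.05 was found for 3 gene entries, where 4.4% of all genes tested had one. They were 2 of the 23 other glutathione genes, GSTM4 and CHAC1, an enzyme that degrades glutathione. CHAC1 was also the 1 of the 10 ATF4 target genes, and the other pathway lists held 0.

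**Figure D3:**
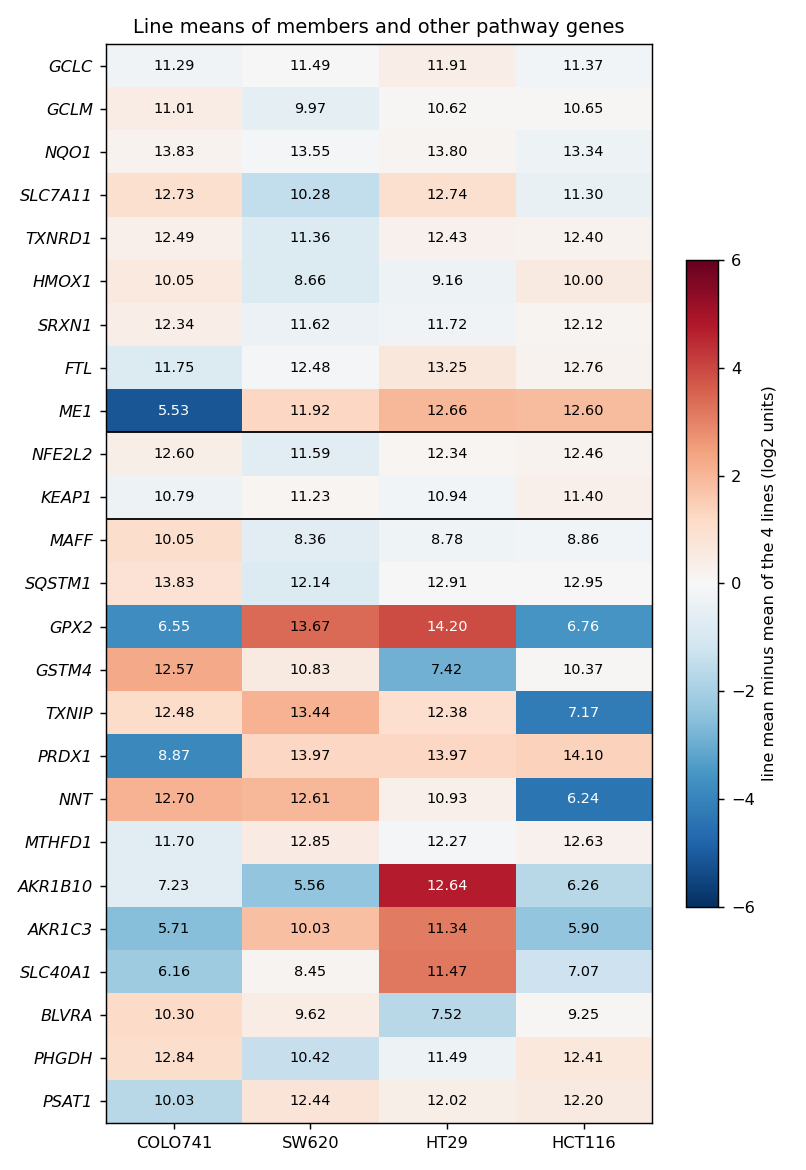
Mean log2 expression value of both populations (printed in each cell) of the 9 genes (top block), NFE2L2 and KEAP1 (middle block) and the other pathway genes (bottom block), by cell line (columns), coloured by the line mean minus the mean of the 4 lines (log2 units). Blue marks the low values of ME1 and PRDX1 in COLO741, of TXNIP and NNT in HCT116, and of GPX2 in COLO741 and HCT116, and red marks AKR1B10 in HT29.

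The genes most like the 3 members of widest range were sought by Pearson's r over the 8 arrays among 4427 other genes with an SD of at least 0.5. The 2 arrays of a line share their source, so r rests mainly on the 4 lines. ME1 was most like PER2, a clock gene (r = 0.998), CMBL, a hydrolase (r = 0.997), and DSG2, a desmosomal cadherin (r = 0.997), and 289 genes exceeded an r of 0.9. DSG2 had a mean of 5.33 for COLO741, 11.60 for SW620, 12.09 for HT29 and 12.59 for HCT116. PER2 had a range of line means of only 1.14, from 8.92 in COLO741 to 10.05 in HT29, against 7.12 for ME1. The size of a difference does not enter r. SLC7A11 was most like SERPINB8, a serpin (r = 0.989), TAPBP, which loads peptides onto class I molecules (r = 0.982), and EXT1, a heparan sulfate polymerase (r = 0.979). FTL was most like C12orf75 (r = 0.976), SNORD12C, a small nucleolar RNA (r = 0.974), and ITPR3, a calcium channel of the endoplasmic reticulum (r = 0.967).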

How the data were processed

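Affymetrix Human Gene 1.0 ST arrays measured RNA of 8 sorted populations. The authors deposited log2 values of 33297 probe sets, made with Affymetrix Expression Console per the submitters' processing notes. That they are log2 follows from their span, 2.99 to 15.24. Neither summarisation nor normalization is stated in the sources used. Array medians lay between 8.03 and 8.10, and no further normalization was applied. Probe sets naming 1 gene numbered 19460, those naming several 1754, and 12083 were not listed. Symbols followed gene identifiers of GRCh38.p14, which matched for 19429. The probe set of highest mean stood for each gene, and 16910 genes with a mean at or above the olfactory receptor median of 5.73 (360 probe sets) were tested.

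Sort differences were tested in limma 3.58.1 (R 4.3.3) with the cell line as block, and lines with the population as covariate, in both cases two-sided with Benjamini-Hochberg adjustment at 0.05 over all genes tested. The labels give the pairing by line, and deviations of paired arrays correlated at 0.932 to 0.963. The fits were tested on simulated data. The genes and lists were chosen with earlier results of these data known. Named were the 9 genes, ABCB5, for each list the 2 genes of widest range above a background mark of 7.50 (the 95th percentile of those probe sets), and 3 genes most like each of 3 members. Numbers of arrays limit the precision. Alternatives were other filters, scalings, probe sets, variance models and blocks, and leaving out arrays or lines.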

Additional observations from a re-analysis of the deposited data

Results flagged for a closer look

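Several levels lay far from the other 3 lines of their population. Across 72 groups of 4 values examined, 14 had 1 value this far out, where chance flags about 1 in 20, and each group holds 4 different lines rather than 4 repeats of a sample. The other pathway genes were picked for a wide range of line means, and both populations of a gene carry the same line differences. The 14 can therefore not be weighed against that chance rate. Among the 9 genes these were ME1 in COLO741, at 5.50 on the positive and 5.57 on the negative array, TXNRD1 on the negative SW620 array at 11.32, GCLC on the negative HT29 array at 12.00, and the sort difference of FTL in COLO741 at -0.70. Among the other genes they were PRDX1 in COLO741 at 8.93 on the positive and 8.81 on the negative array, PSAT1 on the negative COLO741 array at 8.59, AKR1B10 on the negative HT29 array at 13.01, TXNIP on the negative HCT116 array at 6.80, and ABCB5 in COLO741 at 8.14 on the positive and 9.42 on the negative array.

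Of the sort differences, PHGDH in SW620 stood apart at 0.79 and PSAT1 in COLO741 at 2.88. For PSAT1 the difference in COLO741 exceeded that of the other lines by 2.84 log2 units, with a limma adjusted p of 0.0129, and it rests on 1 pair of arrays. The larger difference of SLC7A11 in COLO741, by 1.13, did not pass (adjusted p = 0.0909).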

How the results depend on the processing

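In the sort comparison 0 genes were called by limma under all 12 alternatives, where the count at an unadjusted p under 0.05 was 744 in the fit reported. With no replicate block the count was 0 and with a random replicate block 0, with 0 of the 9 genes in both, and the block changed no call of a gene. Under these alternatives 104 values of the 9 genes kept their sign and 4 did not, all 4 from leaving out a line. Over the lines left out in turn the mean of GCLM ran from -0.0027 (without COLO741) to 0.158, of NQO1 from -0.014 (without COLO741) to 0.104, of SRXN1 from -0.0017 (without SW620) to 0.165 and of ME1 from -0.111 to 0.0046 (without HT29), so that none of these has a settled direction. The cause was not tested. In the line comparison the count of genes ran from 9599 to 11949 around 11370, and 8 or 9 of the 9 genes passed in all 15 alternatives, with NQO1 or GCLC short in 3 that leave out an array. Of 54 comparisons of a gene between a pair of lines 34 passed, 19 of them under all 15 alternatives, and 14 of the 15 lost were lost only when an array was left out, which leaves fewer arrays. HT29 minus HCT116 for SRXN1 passed under the strict filter, quantile normalization, median centring, an intensity trend and with the population left out (adjusted p = 0.0276 to 0.0490). FTL in that pair passed under the strict filter, median centring and an intensity trend (adjusted p = 0.0337 to 0.0486), GCLM for COLO741 minus HCT116 under the strict filter, an intensity trend and with the population left out (adjusted p = 0.0457 to 0.0481), and NQO1 with an intensity trend for COLO741 minus SW620 (adjusted p = 0.0252) and SW620 minus HT29 (adjusted p = 0.0460). COLO741 was then above each other line in 1 gene (GCLM) under the strict filter, an intensity trend and with the population left out, and HT29 in 2 (GCLC and FTL) under the strict filter, median centring and an intensity trend, against 0 and 1 as reported. Pairs of other pathway genes were not recomputed. The strict filter and quantile normalization for the differences by line were chosen after seeing the data and moved no count by over 1.5 times. Differences at background are bounds.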
